A study of Rattus norvegicus with 18 samples.

Results

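The neuropeptide genes of hypothalamic neurons were followed across RNA-seq libraries of rat brain, namely Oxt, Avp, Pomc, Agrp, Hcrt, Pmch, Crh, Trh, Ghrh and Gal. These 10 genes were chosen by name, and each matched 1 row of the 34873 genes in the count table. The 18 libraries form 3 groups of 6. NC rats were wild-type with no treatment given. CO rats, also wild-type, inhaled carbon monoxide (CO). CLCF1 rats inhaled it too and carry the label of a knock-down of Clcf1, which encodes a cytokine of the interleukin-6 family. Per the design text, the exposure was 1000 ppm for 40 min followed by 3000 ppm for 20 min, to a carboxyhemoglobin above 60%. That text describes knock-down or overexpression by lentivirus in cultured macrophages (BMDM), and rats that were given BMDM after chloroquine phosphate liposomes. It does not state which groups received liposomes or BMDM, or whether the CLCF1 rats carry the knock-down outside such cells. Nor do the labels state the part of the brain, the time of sampling, or the animals' age, sex or strain.

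The hypothalamus makes these peptides in small, separate groups of neurons. Magnocellular neurons of the supraoptic and paraventricular nuclei make oxytocin or vasopressin and release them from the posterior pituitary. Parvocellular neurons make the releasing hormones that drive the anterior pituitary, arcuate neurons make the opposing feeding peptides of Pomc and Agrp, and the lateral hypothalamus makes hypocretin (orexin) and melanin-concentrating hormone. Some of the genes are also used elsewhere, such as Crh in cortical interneurons. RNA of a gene that is confined to a small nucleus therefore depends on whether a piece of brain holds that nucleus. In such bulk samples, fewer cells of a type and less RNA per cell cannot be told apart.

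Oxt and Avp are neighbours. The count table, which names no genome build, places Oxt on chromosome 3 at 123106694 to 123107534 on the plus strand and Avp at 123117492 to 123119460 on the minus strand. The genes thus lie tail to tail, 9957 bases apart, with 0 other listed genes between them. The 250 bases before the start of each are shown because these genes reached the highest levels of the 10. They are from RefSeq's GRCr8 assembly, at chr3:138235504-138235753 (plus strand) and chr3:138248523-138248772 (minus strand), and read 5′ to 3′. Capitals mark matches on either strand to AGGTCA, the half-site of several nuclear receptors.
Oxt: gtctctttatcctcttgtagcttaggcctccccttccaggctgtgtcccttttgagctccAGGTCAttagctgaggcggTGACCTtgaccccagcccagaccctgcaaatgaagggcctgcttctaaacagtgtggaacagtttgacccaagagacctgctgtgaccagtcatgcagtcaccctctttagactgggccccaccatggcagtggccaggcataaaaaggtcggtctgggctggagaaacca
Avp: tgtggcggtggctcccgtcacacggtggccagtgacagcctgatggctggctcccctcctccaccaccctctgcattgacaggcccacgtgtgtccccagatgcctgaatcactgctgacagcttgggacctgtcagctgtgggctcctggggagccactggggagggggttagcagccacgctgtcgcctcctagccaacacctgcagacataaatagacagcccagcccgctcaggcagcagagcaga
The Oxt window held the motif at 190 bases before the start and, on the other strand, at 171. The Avp window held none. Across 33469 rat promoter windows of this length 14.1% held it, and among the 8 peptide genes with an entry 3 did, Oxt, Pomc and Trh. The palindrome TGACGTCA, the cyclic AMP response element, was in 0 of the 8 windows and in 1.59% of all. Its half-site TGACG, searched on both strands, was in 3 of the 8, Avp, Trh and Gal, and in 18.2% of all. These are letter matches and were not tested as binding sites.

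Depth was 15.1 to 20.3 M counts a library. Libraries 3 to 6 of each group stood apart from libraries 1 and 2. In the 3 groups together there were 42660 cases of a gene with no count in both library 1 and library 2, and libraries 3 to 6 had a count in 0 of these cases. Conversely, among genes without a count in some pair drawn from libraries 3 to 6, library 1 or 2 did have one for 2.87% to 5.48%. The 6 libraries of a group are therefore not shown to be independent, and the labels do not say that they came from 6 animals, so each p-value measures only the spread between these libraries. Values from libraries 1 and 2 alone are given beside the changes called for the peptide genes. For the other gene lists used below, mostly a count of called genes is given. As a check of the knock-down label, Clcf1 had 1 to 7 counts in NC libraries, 80 to 118 in CO and 0 to 3 in CLCF1.

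Levels are CPM, the depth-scaled count of each gene with library sizes scaled by TMM, given as mean ± SD of 6 libraries. Changes are log2 fold changes ± standard error. The quasi-likelihood test of edgeR gave the p-values, which were adjusted over 16581 genes by the Benjamini-Hochberg method. Of the 10 peptide genes, 8 had enough counts to be tested. Ghrh was too low, and Pmch had 0 counts in all 18 libraries. Between CO and NC 4 of the 8 changed, at a threshold of 0.05, where 12.7% of all tested genes did. Oxt, Avp and Pomc were higher in CO, as were 6.32% of all genes, and Agrp was lower, as were 6.40%. Between CLCF1 and CO 4 of the 8 changed, against 17.0% of all genes. Oxt and Pomc were lower in CLCF1 (8.34% of all genes) and Hcrt and Trh were higher (8.63%). Between CLCF1 and NC 3 of the 8 changed, against 9.26% of all genes, and Avp, Crh and Trh were higher in CLCF1 (4.43% of all genes were higher and 4.84% lower). A gene that is low in all groups but 1 can pass the filter on low counts through that group, so these counts describe the genes and are no test of them as a set. The 3 comparisons share groups.

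With libraries 1 and 2 alone, 9 of the peptide genes entered the fit and 0 changed in any comparison by edgeR or by DESeq2. In those libraries edgeR called 0.0238%, 0.0476% and 0.0119% of all genes, in the order above, and DESeq2 0.303%, 0.618% and 0.303%. At an unadjusted p under 0.05, edgeR had 0, 0 and 1 of the 9, and DESeq2 had 2, 1 and 1. With libraries 3 to 6 alone, which cannot be taken as independent of libraries 1 and 2, edgeR called 4 (Oxt, Avp, Agrp and Trh), 2 (Oxt and Trh) and 1 (Trh) of the 8 genes and 5.51%, 8.62% and 4.42% of all genes.

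**Figure D1:**
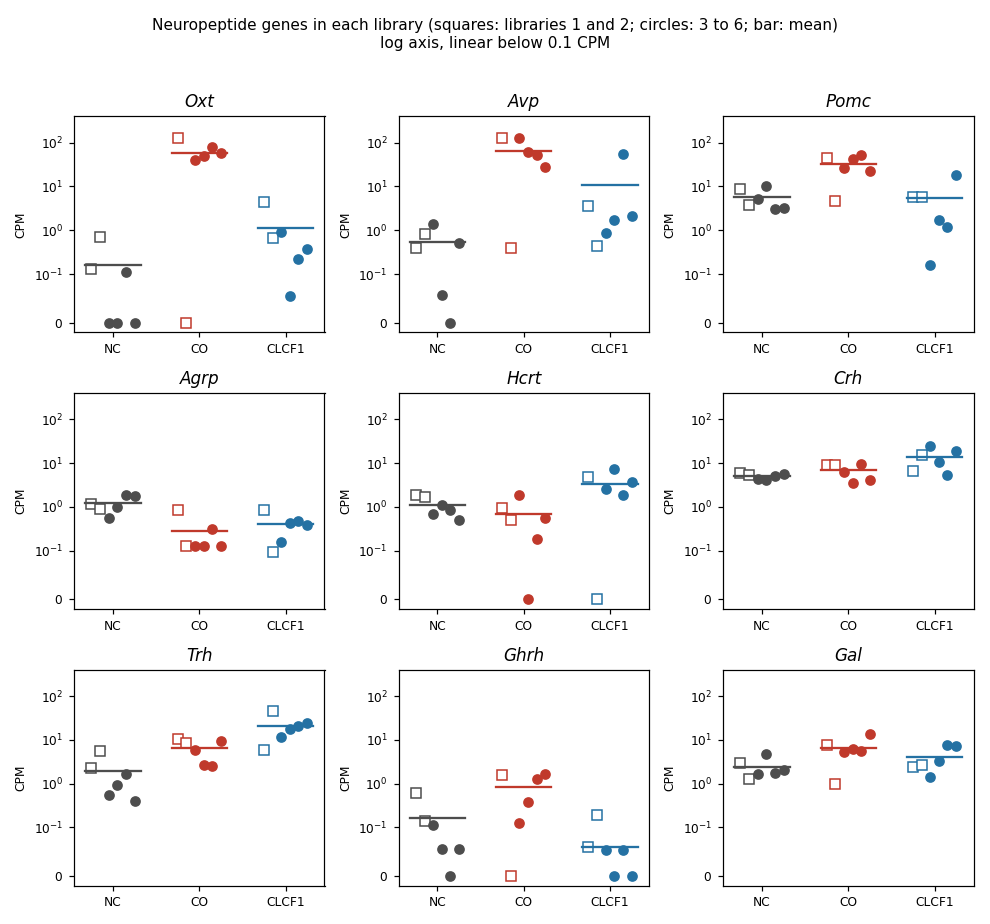
CPM of the 9 detected peptide genes in each library of NC, CO and CLCF1, on a log axis that is linear below 0.1 CPM. Squares are libraries 1 and 2, circles are libraries 3 to 6 and bars are group means. Oxt and Avp of CO reach 126 CPM in library 1 and lie at 0 and 0.387 CPM in library 2.

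Oxt encodes oxytocin with its carrier neurophysin. In the NC libraries it had 2, 15, 0, 0, 2 and 0 counts. The CO libraries held 2111, 0, 634, 801, 1277 and 899, and the CLCF1 libraries 76, 14, 17, 1, 4 and 7. All CO libraries but 1 thus lay far above the others, while CO library 2 had no count, so the groups overlapped. The mean level was 0.157 ± 0.270 CPM in NC, 59.1 ± 42.2 in CO and 1.13 ± 1.69 in CLCF1. Oxt rose in CO against NC by 8.37 ± 1.24 (edgeR adjusted p = 0.000949) and was lower in CLCF1 than in CO by -5.73 ± 1.02 (edgeR adjusted p = 0.00152). CLCF1 against NC gave 2.63 ± 1.31, which missed the threshold (edgeR adjusted p = 0.217). Libraries 1 and 2 alone gave 7.12 ± 3.32, -4.61 ± 2.81 and 2.5 ± 3.19 for these 3 comparisons, none of which passed there. Leaving out any 1 library kept both calls, with 8.0 to 10.1 for CO against NC and -7.02 to -5.36 for CLCF1 against CO.

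Avp encodes vasopressin, the antidiuretic hormone, which also acts with Crh on pituitary corticotrophs. Its counts were 6, 18, 25, 1, 0 and 9 in NC and 2106, 6, 1993, 943, 832 and 438 in CO. In CLCF1 they were 60, 9, 16, 32, 1012 and 39. CO library 2 was again as low as the untreated libraries. CLCF1 library 5 stood with the CO libraries, and the other CLCF1 libraries lay at 3.58 CPM or below. The mean level was 0.533 ± 0.526 CPM in NC, 65.4 ± 51.2 in CO and 10.6 ± 21.7 in CLCF1. Avp rose in CO against NC by 6.90 ± 1.36 (edgeR adjusted p = 0.00392), with 6.61 ± 2.83 in libraries 1 and 2 alone. The difference between CLCF1 and CO was -2.63 ± 1.05 and did not pass (edgeR adjusted p = 0.0905), but it was -5.24 without CLCF1 library 5 (edgeR adjusted p = 0.00255) and -2.89 without CO library 2 (edgeR adjusted p = 0.0451). Avp was higher in CLCF1 than in NC by 4.27 ± 1.28 (edgeR adjusted p = 0.0423). That call rested on CLCF1 library 5, without which the difference was 1.66 (edgeR adjusted p = 0.325), and it was also lost without any 1 NC library (edgeR adjusted p of 0.0529 to 0.0803). Libraries 1 and 2 alone gave 1.61 ± 2.73.

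The balance of the neighbouring genes differed between libraries. In CO libraries 1, 3, 4, 5 and 6 there were 1.00, 0.318, 0.849, 1.53 and 2.05 Oxt counts per Avp count. CLCF1 libraries 1, 2 and 3 held 1.27, 1.56 and 1.06. In CLCF1 libraries 4, 5 and 6 Avp outnumbered Oxt 32-fold, 253-fold and 5.57-fold, with 32, 1012 and 39 Avp counts against 1, 4 and 7. Between libraries 1 and 2, Oxt and Avp were both higher in NC library 2, CO library 1 and CLCF1 library 1. In NC that order rests on few counts, 2 and 15 of Oxt and 6 and 18 of Avp. In CO libraries 3 to 6 both stayed high, at 40.0 to 80.4 CPM for Oxt and 27.8 to 126 for Avp. Where both had counts, their ratio was farthest from 1 in CLCF1 libraries 4, 5 and 6. Libraries lacking counts of either gene have no ratio, among them NC library 3 with 0 Oxt and 25 Avp counts.

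**Figure D2:**
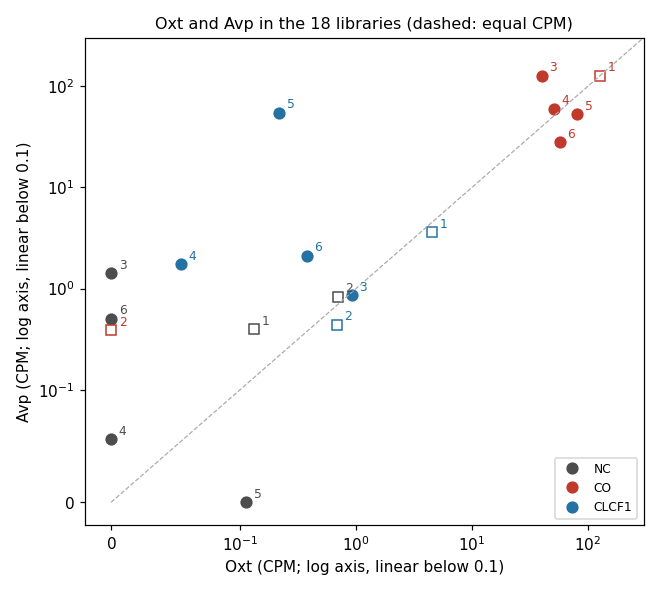
Avp against Oxt in CPM for the 18 libraries, on log axes that are linear below 0.1 CPM. Numbers are library numbers, squares are libraries 1 and 2, and the dashed line marks equal CPM. CO libraries other than 2 sit at the upper right, and CLCF1 library 5 has Avp at 54.8 CPM with Oxt at 0.217.

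Of the releasing hormone genes, Crh and Trh kept their level in CO library 2, where Oxt had no count, and Ghrh had none there either. Crh, corticotropin-releasing hormone, starts the hormonal stress response and is also made by cortical interneurons. It ranged from 4.15 to 5.83 CPM in NC (median 5.25), from 3.43 to 9.76 in CO (median 7.61) and from 5.42 to 24.1 in CLCF1 (median 12.8). Its levels in CO libraries 1 and 2 were 8.97 and 9.09 CPM, and no library was at 0. CO against NC gave 0.45 ± 0.33, short of the threshold (edgeR adjusted p = 0.386). Crh was higher in CLCF1 than in NC by 1.42 ± 0.33 (edgeR adjusted p = 0.0133, 0.91 ± 0.43 in libraries 1 and 2 alone). Against CO the difference was 0.97 ± 0.33 (edgeR adjusted p = 0.0507).

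Trh, thyrotropin-releasing hormone, drives thyrotrophs and is also made outside the hypothalamus. Its levels ran from 0.394 to 5.70 CPM in NC (median 1.30), 2.58 to 10.6 in CO (median 7.12) and 5.84 to 45.6 in CLCF1 (median 19.2). The highest library was CLCF1 library 2, with 937 counts, where Oxt had 14. All 6 CLCF1 libraries lay above all 6 NC libraries, which held for 5.63% of tested genes in either direction, and no other peptide gene separated 2 groups in any comparison. Between CO and NC 6.35% of all tested genes did, and between CLCF1 and CO 7.12%. Trh was higher in CLCF1 than in NC by 3.43 ± 0.60 (edgeR adjusted p = 0.00213, 2.63 ± 0.93 in libraries 1 and 2 alone). It was higher than in CO by 1.68 ± 0.55 (edgeR adjusted p = 0.0439), a call lost without any 1 of 9 libraries, with adjusted p up to 0.118. Libraries 1 and 2 alone gave 1.40 ± 0.88. CO against NC gave 1.75 ± 0.58 (edgeR adjusted p = 0.0527).

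Ghrh, growth hormone-releasing hormone of arcuate neurons, was nearly absent from the counts. There were 16 counts in NC, 81 in CO and 7 in CLCF1, and it was not tested. In CO library 1 it had 27 counts and in CO library 2 none, and CO libraries 5 and 6 held 20 and 26.

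The arcuate feeding genes differed in opposite directions between CO and NC. Pomc, the precursor of the appetite-lowering melanocortins and of pituitary corticotropin, ranged from 3.11 to 10.4 CPM in NC (median 4.50). In CO it ran from 4.64 to 52.8 (median 34.8) and in CLCF1 from 0.161 to 18.5 (median 3.79). The CO libraries other than 2 lay above every other library, and CO library 2, at 4.64 CPM, lay within the NC range. Pomc rose in CO by 2.51 ± 0.71 (edgeR adjusted p = 0.0270) and was lower in CLCF1 than in CO by -2.55 ± 0.71 (edgeR adjusted p = 0.0193). The rise was lost, at edgeR adjusted p of 0.0506 to 0.0552, without any 1 of NC libraries 2, 3, 5 and 6. Libraries 1 and 2 alone gave 2.00 ± 1.02 and -2.11 ± 1.03. CLCF1 and NC differed by -0.04 ± 0.69 (edgeR adjusted p = 0.979).

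Agrp, whose peptide blocks melanocortin receptors and raises appetite, was low throughout. It ranged from 0.563 to 1.92 CPM in NC (median 1.10), 0.126 to 0.837 in CO (median 0.128) and 0.0973 to 0.834 in CLCF1 (median 0.405). Apart from library 1, CO libraries held 2 to 5 counts each. Agrp fell in CO by 2.09 on the log2 scale (SE 0.54, edgeR adjusted p = 0.0172), and libraries 1 and 2 alone gave -1.09 ± 1.29. CLCF1 was not called against CO (0.49 ± 0.57) or NC (-1.61 ± 0.51, edgeR adjusted p = 0.0548).

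Hcrt, the hypocretin gene of wake-promoting lateral hypothalamic neurons, ranged from 0.506 to 1.86 CPM in NC (median 0.986). In CO it ran from 0 to 1.83 (median 0.544) and in CLCF1 from 0 to 7.43 (median 3.12). CLCF1 library 1 held 82 counts and library 2 held 0, with 35 to 137 in the others. Hcrt was higher in CLCF1 than in CO by 2.32 ± 0.78 (edgeR adjusted p = 0.0477). The call was lost without any 1 of 10 of the 12 libraries, with adjusted p up to 0.115, and libraries 1 and 2 alone gave 1.72 ± 1.59. The other comparisons gave -0.72 ± 0.78 for CO against NC and 1.60 ± 0.75 for CLCF1 against NC (edgeR adjusted p = 0.581 and 0.187).

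Pmch, melanin-concentrating hormone, shares the lateral hypothalamus with Hcrt. It had 0 counts in every library, including the CO and CLCF1 libraries with Hcrt counts. Npy, a peptide made by many neurons of cortex and hypothalamus, had only 0 to 5 counts a library. How reads were assigned to these genes is not given in the sources used here, so a count of 0 for Pmch is not read as absence of its RNA.

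Gal, galanin, is made in the hypothalamus and in brainstem noradrenaline neurons. Its levels ran from 1.25 to 4.72 CPM in NC (median 1.89), 0.967 to 13.4 in CO (median 5.82) and 1.45 to 7.69 in CLCF1 (median 2.99). CO library 2 was the lowest of all 18 at 0.967 CPM, and the other 5 CO libraries lay above all NC libraries. CO against NC gave 1.44 ± 0.50, which missed the threshold (edgeR adjusted p = 0.0624), but did without CO library 2 (1.67, edgeR adjusted p = 0.0188) or NC library 4 (1.76, edgeR adjusted p = 0.0385). CLCF1 gave -0.64 ± 0.48 against CO and 0.80 ± 0.49 against NC (edgeR adjusted p = 0.387 and 0.332).

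**Figure D3:**
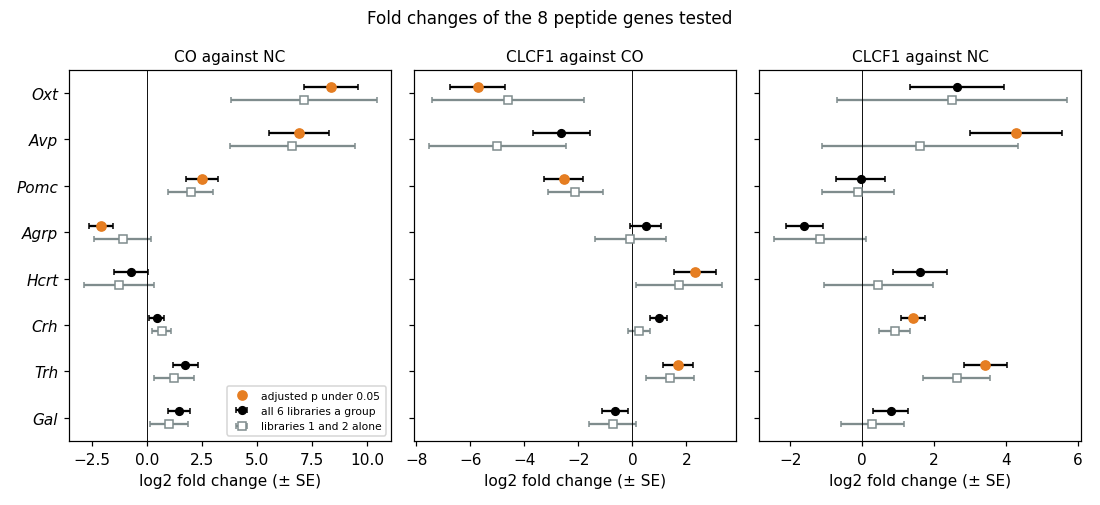
Log2 fold changes ± SE of the 8 peptide genes tested, in 3 panels, CO against NC first, then CLCF1 against each of the others. Circles use all 6 libraries a group, orange where the edgeR adjusted p is under 0.05, and squares use libraries 1 and 2 alone. Oxt shows 8.37 in CO against NC and -5.73 in CLCF1 against CO, with wider errors in libraries 1 and 2.

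The order of the levels per kilobase of gene changed with the group. In NC, Pomc stood at 5.14 ± 2.78 CPM per kb and Crh at 4.24 ± 0.571, with Gal (2.82 CPM per kb), Hcrt (2.01), Agrp (1.88), Trh (1.39), Avp (0.928), Oxt (0.293) and Ghrh (0.194) below. In CO, Avp at 114 ± 89.1 and Oxt at 111 ± 79.0 CPM per kb led, followed by Pomc at 29.2 ± 16.0, Gal at 7.66, Crh at 5.79 and Trh at 4.73. Hcrt (1.21), Ghrh (1.02) and Agrp (0.427) came last. In CLCF1, Avp at 18.4 ± 37.7 CPM per kb led through 1 library, before Trh at 15.1 ± 9.88, Crh at 11.3 ± 6.14, Hcrt at 6.11, Pomc at 4.97, Gal at 4.90, Oxt at 2.11, Agrp at 0.615 and Ghrh at 0.0732. Neighbours in these orders differed by less than the larger of their SDs, except Oxt and Pomc, Pomc and Gal, and Trh and Hcrt in CO, and Agrp and Ghrh in CLCF1.

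Whether the peptides moved with the tissue sampled was addressed with genes of the hypothalamus that encode no peptide. Of 25 transcription factors that pattern its regions, 12 had enough counts to be tested and 1 changed between CO and NC, Lhx9 (-3.22 ± 0.90, edgeR adjusted p = 0.0252), a factor shared with the thalamus. Of all tested genes 12.7% changed. The median log2 fold change of the 12 factors was -0.09, against 0.007 for all genes. The factors that are most restricted to the hypothalamus had too few counts to test. CO libraries 1, 3, 4, 5 and 6 had 3 to 5 of the 25 at 0 counts, and CO library 2 had 14. NC libraries had 7 to 12 at 0 and CLCF1 libraries 11 to 15.

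The factors with a count in CO library 1 and none in CO library 2 numbered 12: Sim1, Otp, Nkx2-4, Six6, Rax, Fezf1, Nr5a1, Hmx2, Hmx3, Lhx1, Lhx9 and Bsx. Lhx1 had only 1 count in CO library 1. In NC 6 factors, Sim1 and Otp among them, had a count in library 1 only, and in CLCF1 5 did. The reverse held for 1 factor in each group. NC library 2, without Sim1 and Otp counts, held more Oxt and Avp counts (15 and 18) than NC library 1 (2 and 6). The share of all genes with such a pattern was not counted. Sim1 and Otp, which specify the neurons of the paraventricular and supraoptic nuclei, had 10 and 35 counts in CO library 1 and 0 and 0 in library 2. Nr5a1 and Fezf1 mark the ventromedial nucleus, and Rax marks tanycytes. Nr5a1 held 74 counts over the CO libraries and none in NC or CLCF1, at least 27.8-fold higher than NC. Rax was at least 15-fold and Fezf1 at least 31.2-fold higher in CO than in NC, which was at 0. For these bounds a group without counts was set to 3 counts in sum, and they cover counting error only. Fezf1 had 8 counts in CLCF1, and Rax had none there.

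Of the 25 factors, 20 were higher in CO library 1 than in CO library 2, where 50.4% of all tested genes were. Of the 9 detected peptide genes 8 were, all but Crh. In NC, 6 of the 9 peptide genes and 9 of the 25 factors were higher in library 1, and in CLCF1 4 and 7, where 45.7% and 47.9% of all tested genes were. Factors at 0 in both libraries, 6 in NC, 2 in CO and 10 in CLCF1, were counted as not higher. These shares of the 25 are therefore not comparable between groups or with those of all tested genes. Oxt, Avp, Pomc, Gal and Ghrh were thus low in the 1 CO library that lacked counts of Sim1, Otp, Nr5a1 and Rax. Crh and Trh stayed at 9.09 and 8.44 CPM in it.

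The peptides did not all follow these markers. CLCF1 libraries had no Otp, Nr5a1 or Rax count and 0 to 6 Sim1 counts, yet Avp reached 54.8 CPM in CLCF1 library 5 and Trh 45.6 in library 2. Agrp was highest in NC, where Nr5a1, Rax and Six6 had no counts. With the mean log2 CPM of the 12 tested factors as a covariate, Oxt and Avp still rose in CO against NC, where 9.08% of all genes changed (8.92 ± 1.28 and 7.01 ± 1.46, edgeR adjusted p = 0.00153 and 0.00893). Pomc (2.37 ± 0.73, edgeR adjusted p = 0.0505) and Agrp (-1.80 ± 0.56, edgeR adjusted p = 0.0529) no longer passed. The covariate left 2 of the 8 genes called in CLCF1 against CO, Oxt and Pomc (12.7% of all genes), and 0 in CLCF1 against NC (2.39% of all genes). That covariate holds widely expressed factors such as Arnt2 and Dlx1, and lacks Sim1, Otp, Rax and Nr5a1, so it does not measure the share of hypothalamus in a sample. Since the labels name no brain region, a difference in the tissue taken and a difference in transcription cannot be told apart.

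**Figure D4:**
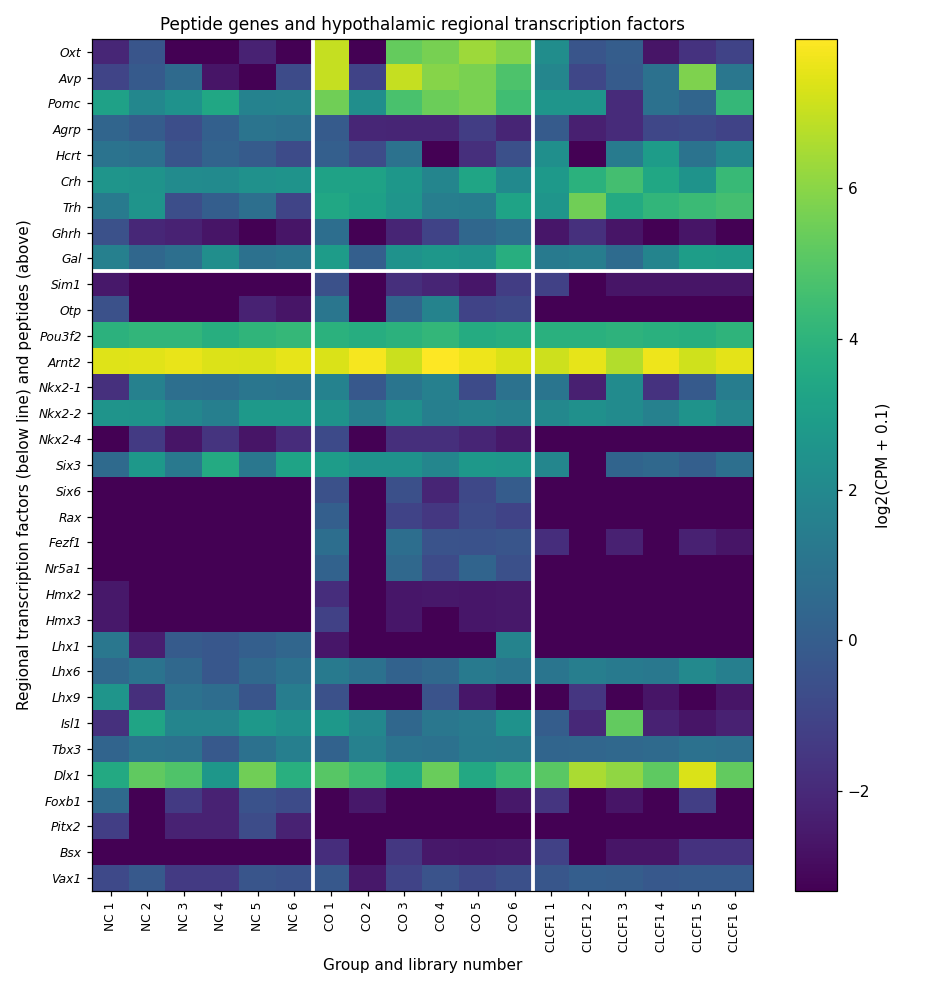
log2(CPM + 0.1) of the 9 detected peptide genes (above the horizontal line) and 24 hypothalamic regional transcription factors (below it) in the 18 libraries. The column of CO library 2 is dark, at 0 counts, for Oxt and for Sim1, Otp, Six6, Rax, Fezf1 and Nr5a1, which have counts in the other CO libraries.

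Other genes of hypothalamic neurons and tanycytes were mostly higher in library 1 than in library 2 in each group. Of 13 such genes found, 12 were higher in library 1 in CO, 10 in NC and 8 in CLCF1. Of all tested genes 50.4%, 45.7% and 47.9% were. The summed level of the 13 in CO was 1390 CPM in library 1 and 333 in library 2, against 904 to 1210 in NC. Libraries 1 and 2 summed to 1180 and 915 CPM in NC and 807 and 728 in CLCF1. CO libraries 3 to 6 summed to 618, 692, 1140 and 657 CPM, so that 3 of these, in which Oxt and Avp were high, lay below every NC library. The mean was 805 ± 386 CPM in CO and 1040 ± 133 in NC, so the summed level was not higher in CO. Nnat alone held 364 ± 229 CPM of it in CO and 672 ± 168 in NC, so the sum is weighted toward that gene. The next largest, Crym and Hap1, had higher means in CO (190 and 172 CPM) than in NC (131 and 154). The median log2 fold change of the 12 genes tested was 0.10, against 0.007 for all genes. None of the 12 tested changed between CO and NC. Between CLCF1 and CO, where 17.0% of all tested genes changed, 2 of the 12 fell. They were Irs4, an insulin receptor substrate (-3.66 ± 0.83), and Calcr, the calcitonin receptor (-3.01 ± 0.70), with edgeR adjusted p of 0.00642 and 0.00733. Against NC, where 9.26% of all tested genes changed, these genes and Baiap3 were lower in CLCF1, by -3.60, -2.57 and -1.55.

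Among 24 other peptide genes of the hypothalamus, 14 were tested. Between CO and NC, where 12.7% of all tested genes changed, 2 rose and 12 did not pass, with a median of 0.08. Npvf, whose RFamide peptides restrain the gonadal axis and whose neurons lie in the dorsomedial hypothalamus, had 43, 13, 43, 27, 15 and 28 counts in CO and none in the NC and CLCF1 libraries. It was at least 63.6-fold higher than in NC (edgeR adjusted p = 0.00107), and CO library 2 held counts too. Penk, proenkephalin, which is abundant in striatum, rose by 1.12 ± 0.36 (edgeR adjusted p = 0.0465). Between CLCF1 and CO, Npvf and the neurotensin gene Nts (-1.92 ± 0.40) were lower and the neuromedin gene Nmb (2.81 ± 0.68) was higher. Of all tested genes 17.0% changed there. Against NC, Nmb (2.15) and the cholecystokinin gene Cck (0.63) were higher in CLCF1 and Nts (-2.23) was lower, where 9.26% of all tested genes changed.

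Most receptor genes of the peptides did not pass. Of 18 receptor and binding protein genes, 11 were tested, and Crhbp, the binding protein that holds Crh, rose in CO (0.44 ± 0.13, edgeR adjusted p = 0.0370). Of all tested genes 6.32% rose there. The oxytocin receptor gene Oxtr had 1.08 ± 1.34 CPM in NC and 0.440 ± 0.182 in CO, and the vasopressin receptor gene Avpr1a 1.17 ± 0.456 and 0.766 ± 0.481. Mc4r, the melanocortin receptor on which Pomc and Agrp peptides compete, was lower in CLCF1 than in CO by -4.36 ± 0.52 (edgeR adjusted p = 0.000156) and than in NC by -3.17 ± 0.51 (edgeR adjusted p = 0.00117). Its level was 2.69 ± 1.51 CPM in NC, 6.16 ± 1.28 in CO and 0.299 ± 0.337 in CLCF1, without overlap between CLCF1 and either other group. Libraries 1 and 2 alone gave -3.41 and -2.16.

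Genes that process and package prohormones are expressed by neurons and endocrine cells in general. Of 12 tested, Chga, a granin of secretory granules, rose in CO (0.34 ± 0.10). Qpct, which forms the pyroglutamate end of Trh, fell by 0.75, and 10 did not pass. Of all tested genes 12.7% changed there. Between CLCF1 and CO 4 were lower, Chga (-0.43), Scg5 (-0.47), Pcsk1n (-2.27) and Chgb (-0.41), against 8.34% of all tested genes. Against NC none of the 12 passed edgeR's adjusted threshold.

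Pituitary and brainstem genes were read beside these values, since Pomc is also a pituitary gene and Gal also a brainstem gene. Of 11 pituitary genes 5 were tested, and 1 rose between CO and NC, where 6.32% of all tested genes did. Gh1, growth hormone, rose in CO by 3.22 ± 0.65 (edgeR adjusted p = 0.00436, from 0.509 ± 0.444 to 4.74 ± 2.78 CPM) and was lower in CLCF1 than in CO by -3.89 ± 0.67 (edgeR adjusted p = 0.00131). The other 4 did not pass between CO and NC: Tbx19, a factor of corticotrophs, gave -1.09 ± 0.51, Tshb -0.78 ± 0.47, Cga -0.18 ± 0.23 and Lhb 0.03 ± 0.39. Cga, the shared subunit of the glycoprotein hormones, was lower in CLCF1 than in CO (-0.75 ± 0.24, edgeR adjusted p = 0.0393) and than in NC (-0.92 ± 0.24, edgeR adjusted p = 0.0213). CO library 2 held 8 Gh1 counts and the other CO libraries 49 to 120. Fshb had no count in any group. Pou1f1, Pitx1 and Gnrhr had none in CO, but only 4, 8 and 10 counts over the NC libraries. In CLCF1, Pou1f1 and Pitx1 had none and Gnrhr had 38. The summed level of the list was 6.34 to 9.78 CPM in NC, 7.16 to 14.4 in CO and 4.62 to 9.98 in CLCF1. Of 15 genes of brainstem monoamine neurons and hindbrain 5 were tested. Lower in CO than in NC were 3, Slc6a3 (-8.59), Tph2 (-3.93) and Ddc (-2.72), against 6.40% of all tested genes. In CLCF1 these 3 were lower than in NC (-3.88, -3.46 and -3.32), against 4.84% of all tested genes. Slc6a3 (4.72, edgeR adjusted p = 0.0189) and Th (2.64, edgeR adjusted p = 0.0351) were higher in CLCF1 than in CO, against 8.63% of all tested genes. The CLCF1 libraries held 0, 78, 0, 15, 70 and 47 Slc6a3 counts. The summed level of the 15 genes was 28.0 to 287 CPM in NC, 17.3 to 64.2 in CO and 24.0 to 63.3 in CLCF1. NC library 1 stood at 287 and NC library 2 at 28.0. The part of pituitary or brainstem tissue in the peptide results was not tested.

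Lists of other regions and cell types were counted for CO against NC, beside the 12.7% of all tested genes that changed. Of 13 cortical genes 3 rose (median 0.38), of 11 striatal genes none passed (median 0.83), and of 9 thalamic genes 1 fell (median -0.46). None of 7 cerebellar genes passed, and 1 of 10 choroid plexus genes fell. Of 12 fibroblast and meningeal genes 7 fell (median -0.90), of 16 pan-neuronal genes 4 rose (median 0.21) and of 15 glial genes 2 fell (median -0.16). Between CLCF1 and CO 7 of 10 choroid plexus genes were higher (median 4.11), against 8.63% of all tested genes. With libraries 1 and 2 alone, edgeR called only 1 gene of all the lists in any comparison. That was a choroid plexus gene in CLCF1 against CO, so the other list genes called with all libraries did not pass there.

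The genes most like Oxt and Avp were sought among all tested genes by the root mean square difference of log2 CPM, each gene centred on its own mean. Over 18 libraries the nearest to Oxt were Mrpl53 (1.67), the amylase gene Amy2a3 (1.73), LOC100365995 (2.03), Avp (2.07) and the chemokine gene Ccl3 (2.20). Pomc ranked 36 and Gal 142, while Trh, Crh, Agrp and Hcrt ranked 10842 to 16040. The nearest to Avp were Mrpl53 (1.82), LOC100365995 (1.92), Oxt (2.07), the neuronal enolase gene Eno2 (2.09) and AC126148.3 (2.14). Over the 6 libraries numbered 1 and 2, Avp was the nearest gene to Oxt and Oxt the nearest to Avp, at a difference of 0.91. Mrpl53, a mitochondrial ribosomal protein gene, came second in both, with Dct, Faah and AC111257.1 next for Oxt and LOC103694902, LOC100365995 and AC111257.1 next for Avp. Reads of Amy2a3 can be shared with near-identical amylase genes. In all 4 lists the neighbours were named by likeness over these libraries alone.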

How the data were processed

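Per the labels' protocols, RNA came from rat brain through a column kit, and the SMARTER mRNA-Seq kit served for library construction. The authors deposited whole-number raw counts per gene for 18 libraries, with no normalization, in 1 table of 34873 genes, of which 2328 carry no rat Ensembl ID (1.21% to 1.62% of counts). No aligner or counter is given in the labels. The submitters' processing notes name GRCm38 and mm10, which are mouse builds, so coordinates are printed as the table gives them. Groups and library numbers came from titles.

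The test was that of edgeR 4.0.16 under R 4.3.3 (TMM, filterByExpr defaults, 1 robust quasi-likelihood fit of 18 libraries, common dispersion 0.0972). Alternatives were DESeq2 1.42.0, DESeq2 size factors, library size alone, no filter, a stricter one (10 counts in 6 libraries and mean CPM of 1), 2 groups only, the library number as block, libraries 1 and 2 or 3 to 6 alone, a transcription factor covariate, and each library left out. DESeq2 on libraries 1 and 2 was added after seeing the data. Log2 CPM used a prior count of 2. Chi-square per degree of freedom between libraries of a group was 42.2 or more, so no pair agreed within sampling noise. The fit was tested on simulated data.

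The peptide genes and all lists were chosen with earlier results of these data known. Named were all 10 peptide genes, Clcf1, up to 4 passing genes a list with the smallest p, and the 5 genes most like Oxt or Avp. The other list genes named, among them Oxtr, Avpr1a, Npy and the transcription factors with few counts, were chosen after their values were seen. Listed genes without a row in the table were not analysed here.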

Additional observations from a re-analysis of the deposited data

Results flagged for a closer look

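Single libraries stood far from the other 5 of their group in 8 of the 27 sets of 6 that hold counts of a peptide gene, where the gap to the nearest library, as a share of the range, exceeded Dixon's critical value. That value flags about 1 set in 20 where the 6 values are independent and normally distributed. CPM near 0 from these libraries are not shown to be either, so that rate cannot be set against the 8 found. In CLCF1, Avp stood at 54.8 CPM in library 5, with 3.58 as the next value, Oxt at 4.53 CPM in library 1, with 0.915 next, and Pomc at 18.5 CPM in library 6, with 5.89 next. Ghrh stood at 0.195 CPM in CLCF1 library 2 and at 0.596 CPM in NC library 1, values of 4 and 9 counts. In NC, library 2 was the highest for Oxt (0.695 CPM) and for Trh (5.70 CPM). In CO, Agrp stood at 0.837 CPM in library 1, with 0.315 next. The causes were not tested.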

How the results depend on the processing

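Of the 3 counts of changed peptide genes (4 in CO against NC, 4 in CLCF1 against CO, 3 in CLCF1 against NC), libraries 1 and 2 alone gave 0, 0 and 0 by edgeR and again 0, 0 and 0 by DESeq2. The transcription factor covariate gave 2, 2 and 0, and libraries 3 to 6 alone gave 2 in CLCF1 against CO and 1 in CLCF1 against NC. Leaving out 1 library gave 3 to 5, 2 to 4 and 2 to 4. Fold changes reversed only where they were near 0: Agrp in CLCF1 against CO was -0.076 by edgeR and -0.079 by DESeq2 in libraries 1 and 2 alone, against 0.49, and Pomc in CLCF1 against NC was 0.10, 0.21, 0.21, 0.13 and 0.17 without NC library 1, NC library 4, or CLCF1 library 3, 4 or 5, in a range of -0.949 to 0.213 over all libraries left out. The library number paired no samples by its labels, and the deviations of same-numbered libraries correlated at -0.028 to 0.149, above 0.1 in 1 of 18 pairs. With it as a replicate block the counts were 5, 4 and 3, Trh passed in CO against NC, Avp (-3.71) passed and Hcrt did not in CLCF1 against CO, and Agrp (-1.78) passed and Avp (2.71) did not in CLCF1 against NC. Under DESeq2 with all libraries, Trh (1.76) and Gal (1.44) also passed in CO against NC, Crh (0.96) in CLCF1 against CO and Agrp (-1.63) in CLCF1 against NC. The causes were not tested. Libraries 1 and 2 alone hold fewer samples. Low counts limit Ghrh, Agrp and Hcrt, at 0 to 137 counts a library.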

Other observations

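The values of libraries 3 to 6 were set against the range of libraries 1 and 2 of their group. Of 96 values of the 8 tested peptide genes in those libraries, 40 lay inside it, with 7 of 32 in NC, 17 of 32 in CO and 16 of 32 in CLCF1. Over all tested genes 35.5%, 34.7% and 45.8% lay inside. Avp in CLCF1 library 5, at 54.8 CPM between partners at 3.58 and 0.438, was the farthest outside by difference in CPM.

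A melanocortin and a galanin receptor gene with few counts had none in CLCF1. Mc3r held 57 counts in CO and Galr3 held 55, in 5 libraries each, and both had no count in CLCF1, at least 22.2-fold and 21.4-fold lower where the group without counts is set to 3 counts in sum. Both were at 0 in CO library 2 as well.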
